A study of Mus musculus with 8 samples.

Results

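The miR-342 hairpin gives rise to a pair of mature microRNAs (miRNAs), miR-342-3p and miR-342-5p, and both were measured by real-time PCR in laser-captured arterial tissue of female apoe-/- mice. They were the 2 assays of the table whose names, without the assay number, were mmu-miR-342-3p and mmu-miR-342-5p, out of 517 mouse miRNA assays. All mice lacked apolipoprotein E, which makes them prone to atherosclerosis, and ate a high-fat diet for 3 months. The labels give an age of 6 to 8 weeks, which is shorter than the diet and so cannot be the age at sampling. The plaque group held 4 samples of early atherosclerotic plaque from the aortic root, and the undiseased artery group held 4 samples of vessel wall of normal appearance whose label says only artery, so that plaque and vessel site cannot be told apart. A sample pooled tissue of 40 or more sections of a mouse, and the labels call the samples biological replicates without saying whether both groups came from the same animals.

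miR-342 is known as a miRNA of blood-forming and immune cells. A miRNA hairpin is cut into a duplex, and either strand can be loaded into an Argonaute protein, where bases 2 to 8 (the seed) direct it to messenger RNAs. The 3p strand is generally the more abundant product of miR-342. In mouse macrophages the 5p strand has been reported to repress Akt1, a kinase that restrains inflammatory activation, and in this way to raise miR-155, a miRNA induced in activated macrophages.

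The arms are shown because they carry different seeds and so are separate regulators made from a single transcript. In the mature sequences below the seed is in capitals (RefSeq, mouse build GRCm38.p6).
mmu-miR-342-5p: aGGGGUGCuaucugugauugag
mmu-miR-342-3p: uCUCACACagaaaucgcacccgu
In the hairpin the 2 mature strands are in capitals, the 5p arm first.
Mir342 hairpin: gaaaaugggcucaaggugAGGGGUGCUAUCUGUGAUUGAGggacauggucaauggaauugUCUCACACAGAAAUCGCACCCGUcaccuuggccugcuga
The hairpin lies on the plus strand of chromosome 12, from 108658620 to 108658718, the 5p arm from 108658638 to 108658659 and the 3p arm from 108658680 to 108658702. This position is within the span of Evl (108554681 to 108688516), the gene of an actin-regulating protein of the Ena/VASP family, in which miR-342 is known as an intronic miRNA. Of 1738 mature mouse miRNA entries in the RefSeq table, each seed occurred in 1 entry, its own arm, so the arms share a seed neither with each other nor with another entry. In a predicted fold of the hairpin (RNAfold) 17 base pairs joined the 22-base 5p arm to the 23-base 3p arm.

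Each value is an uncorrected threshold cycle (Ct), that is, how many PCR cycles passed before fluorescence reached a fixed line, so that a late Ct stands for little RNA. A Ct under 35 counted as detected, and a well without amplification is entered as 40. Of the miRNA wells, 54 of 4136 held a Ct from 35 to under 38 and 0 held a Ct from 38 to under 40, the highest value below 40 being 37.0. Undiseased artery samples detected 227 to 288 miRNAs and plaque samples 148 to 240, plaque 2 and plaque 3 being lowest with 175 and 148. Averaged over the 124 miRNAs that no sample missed, the raw Ct was 24.7 to 26.6 in undiseased artery, and 27.1, 28.8, 29.9 and 26.3 in plaque 1 to 4. The smooth muscle miRNAs miR-143 and miR-145 and the blood cell miRNA miR-142-3p were detected in all 8 samples.

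miR-342-3p was detected in all 8 samples, with raw Cts that were close together in undiseased artery and far apart in plaque. The undiseased samples 1 to 4 crossed the line at raw Cts of 25.2, 26.0, 25.9 and 27.0. The plaque samples 1 to 4 did so at 24.4, 29.0, 29.0 and 20.8. Plaque 4 and plaque 1 thus amplified earlier than every undiseased sample, and plaque 2 and plaque 3 later than every undiseased sample. The group means were 26.0 ± 0.738 cycles in undiseased artery and 25.8 ± 3.98 in plaque (SD, n = 4 each), so raw Cts differed less between the groups than within plaque. In bulk tissue, fewer cells of a type and less RNA per cell cannot be told apart.

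miR-342-5p was detected in 2 plaque samples and in 0 undiseased samples. Its Ct was 34.0 in plaque 1 and 31.0 in plaque 4, and 40 in plaque 2, in plaque 3 and in all 4 undiseased samples. The plaque samples that detected the 5p arm were the same that had the earliest 3p amplification of all 8 samples. Detection in 2 of 4 against 0 of 4 samples did not pass Fisher's exact test (two-sided, p = 0.429), and such a design cannot pass it unless all 4 plaque samples detect the miRNA. A Ct limit of 38 gave the same detection, and a limit of 32 left plaque 4 alone.

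**Figure D1:**
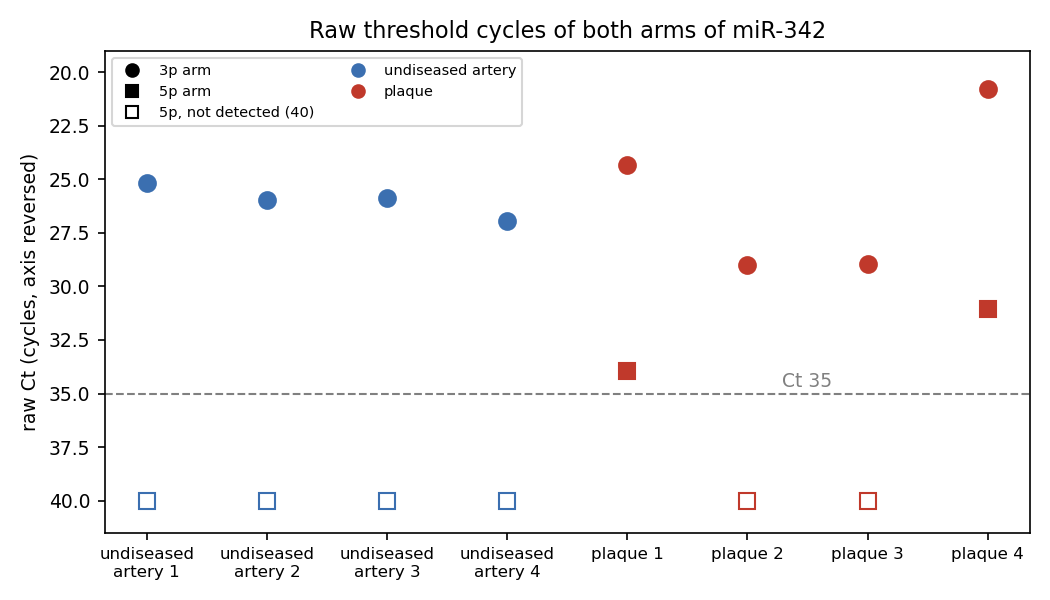
Raw Ct in cycles (vertical axis, reversed so that more RNA is higher) of the 3p arm (circles) and the 5p arm (squares) in each of the 8 samples, undiseased artery in blue and plaque in red, with open symbols at 40 for wells not detected and a dashed line at the Ct limit of 35. The 5p arm appears only in plaque 1 (34.0) and plaque 4 (31.0), the samples where the 3p arm is earliest (24.4 and 20.8).

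A gain of detection of this kind was rare on the panels. Of the 517 miRNA assays, 3 (0.58%) were detected in 0 undiseased and at least 2 plaque samples, against 25 (4.84%) with the opposite pattern. The other two were miR-208, a miRNA of heart muscle found in plaque 1 and plaque 3, and miR-546, found in plaque 2 and plaque 4. No other assay was detected in exactly plaque 1 and plaque 4, the plaque samples with the most miRNAs detected. Assays found in undiseased artery, such as miR-181c, could also be detected in these plaque samples and not in plaque 2 or plaque 3. Both arms, or a strand and its star strand, were on the panels for 140 hairpins, and in 56 of these a single arm was detected in all 8 samples. In this set of 56, the other arm was found in more plaque than undiseased samples for 6 hairpins, in fewer for 33 and equally often for 17. miR-342 was the only 1 of the 56 whose other arm was absent from undiseased artery and present in at least 2 plaque samples. The other arms of the miR-146b and miR-674 hairpins came close, each detected in plaque 1, plaque 4 and 1 undiseased sample. All these shares describe the panels and were not tested.

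The distance between the arms could be measured in the samples that detected both. The 5p arm came 9.61 cycles after the 3p arm in plaque 1 and 10.3 cycles after it in plaque 4, a difference of 0.667 cycles between these samples. Since assays differ in efficiency, this distance is not a ratio of the strands. In the 7 hairpins with both arms detected in all 8 samples, the distances of plaque 4 and plaque 1 differed by 0.04 to 3.96 cycles (median 0.349), by less than for miR-342 in 4 hairpins and by more in 3. Only miR-126 (2.62) and miR-877 (0.349) had both arms on the same panel, as miR-342 does. In the other hairpins the distance also includes any difference between the panels.

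In the other samples the distance has only a lower limit, which depends on how much 3p arm the sample held. At a Ct limit of 35 the limits were 9.85, 9.02, 9.11 and 8.05 cycles for undiseased artery 1 to 4, while plaque 2 and plaque 3 gave 6.02 and 6.03. The limit of undiseased artery 1 lay above the distance of plaque 1, and the remaining limits lay below both measured distances. With the distance of plaque 1, the 5p arm would have a Ct of 34.8, 35.6, 35.5 and 36.6 in undiseased artery 1 to 4, the first just under the limit of 35 and the others past it, and of 38.6 in both plaque 2 and plaque 3. With the distance of plaque 4 it would lie at 35.4 to 37.2 in undiseased artery. At a limit of 38 the lower limits in undiseased artery rose to 11.0 to 12.8 cycles, all 4 above both measured distances. No well of any miRNA read between 38 and 40, and how reliably a Ct from 35 to 38 is read was not tested. At a limit of 35, undiseased artery 1 alone thus had a distance above that of plaque 1, by 0.24 cycles or more, and none had a limit above that of plaque 4, so a different distance was not detectable in undiseased artery 2 to 4. At either limit the lower limits in undiseased artery rest on wells without amplification. At 38 they also assume that a Ct from 35 to 38 would have been read.

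To compare samples with different amounts of RNA, each was centred on the mean Ct of the 124 miRNAs detected everywhere, and the sign was turned so that a higher level means more RNA, in cycles (log2 units if amplification is fully efficient). The level of miR-342-3p was -0.13, -0.98, -1.20 and -0.31 in undiseased artery 1 to 4, and the plaque samples stood at 2.78, -0.14, 0.95 and 5.49. Plaque 1, 3 and 4 lay above all undiseased samples, while plaque 2 lay within their range. The means were -0.65 ± 0.52 and 2.27 ± 2.46 (SD, n = 4 each).

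miR-342-3p rose in plaque by 7.59-fold on this scale. The log2 fold change was 2.92 (SE 0.997, 95% interval 0.74 to 5.11, adjusted p = 0.0428, limma with Benjamini-Hochberg adjustment over the 172 miRNAs tested). In folds the interval ran from 1.67 to 34.6. Of the 172 tested miRNAs 27 (15.7%) passed as higher in plaque and 32 (18.6%) as lower, and 9 of the 27 rose by more than miR-342-3p. This split depended on the reference: 11 rose and 37 fell with quantile normalization, 0 and 81 on raw Ct, and 0 and 2 with the control RNAs or with U6. Unlike 32.6% of the tested miRNAs, its groups overlapped. An exact permutation test of this miRNA alone gave p = 0.0571 (two-sided), where 0.0286 is the smallest p that 70 arrangements allow.

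The spread among plaque samples was unusual for the panel. The SD of the miR-342-3p level in plaque was 2.46 cycles, and 1 of the 123 other miRNAs detected in all samples had a larger one, the median being 0.963. In undiseased artery its SD of 0.516 was near the median of 0.442, with 44 of the other miRNAs above it. The levels in plaque followed the depth of the samples in part: plaque 4 and plaque 1 had the lower mean raw Cts and the higher levels. With mean raw Ct as a covariate the log2 difference was 5.44 (limma adjusted p = 0.0253). Mean raw Ct itself differed between the groups (24.7 to 26.6 against 26.3 to 29.9 in plaque), so this fit cannot well separate depth from group.

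The size of the difference was similar under 6 of the 7 references tried, and its call was not. The log2 difference was 2.86 with the median of the 124 miRNAs (limma adjusted p = 0.0658), 2.44 with the control RNAs (0.203 for the limma adjusted p), 2.48 with U6 (0.470) and 2.35 with quantile normalization (0.123). With separate centring of the 2 panels it was 3.48 and passed (limma adjusted p = 0.0309), and all 4 plaque samples then lay above all undiseased ones. On raw Ct, with no reference, it was 0.23 (limma adjusted p = 0.913), and all tested miRNAs had a median of -2.59. Under the control RNA reference the levels of plaque 1 and plaque 4 were -0.37 and -0.51, above the -6.08 to -4.06 of undiseased artery, while plaque 3 (-5.06) lay inside that range and plaque 2 (-6.30) below it.

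Leaving out a single sample changed the call as well. In the fits that lost the call the SE was 1.11 to 1.16, against 0.997 with all 8 samples. Without undiseased artery 1, 2, 3 or 4 the log2 differences were 3.10, 2.82, 2.74 and 3.04, and without plaque 1 it was 2.76, none of them called (limma adjusted p from 0.0721 to 0.109). Without plaque 2 or plaque 3 it was 3.73 and 3.36, both called. Without plaque 4, the sample with the highest level, it fell to 1.85 and passed narrowly (limma adjusted p = 0.0496). Without plaque 2 and plaque 3 together, the samples with the fewest miRNAs detected, it was 4.79 (limma adjusted p = 0.00128), from plaque 1 and plaque 4 alone.

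**Figure D2:**
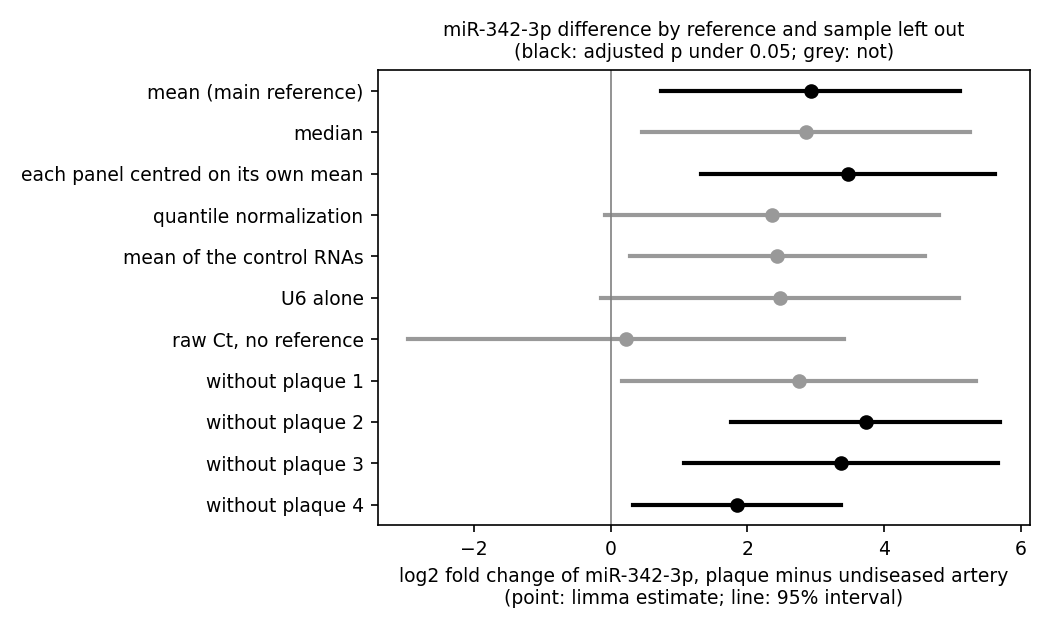
Log2 fold change of miR-342-3p, plaque minus undiseased artery (horizontal axis), with its 95% limma interval, for 7 references and for the 4 fits that leave out a plaque sample, black where the adjusted p was under 0.05 and grey where it was not. The estimates lie between 1.85 and 3.73 except on raw Ct (0.23).

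A comparison within each sample needs no reference, and miR-342-3p was therefore set against 6 other miRNAs of leukocytes as the Ct of the other miRNA minus the Ct of miR-342-3p. Against miR-150, a miRNA of mature lymphocytes, all 4 plaque samples stood apart. Undiseased artery 1 to 4 gave differences of -1.87, -2.60, -2.55 and -2.74 cycles, whereas plaque 1 to 4 gave 2.03, 0.97, 0.01 and 2.33. miR-150 thus amplified before miR-342-3p in every undiseased sample and after it in every plaque sample. The means differed by 3.77 cycles (-2.44 ± 0.391 against 1.33 ± 1.06, SD, n = 4 each), equal to 13.7-fold at full efficiency. The exact permutation test gave the smallest possible p of 0.0286, and 0.171 after Benjamini-Hochberg adjustment over the 6 comparisons, which does not pass.

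Against miR-155 the group means lay close together, with plaque 4 above and plaque 2 below the undiseased range. Undiseased artery 1 to 4 gave 4.17, 4.13, 3.34 and 2.81 cycles, whereas plaque 1 to 4 gave 4.16, 2.37, 2.99 and 5.48. The groups overlapped, and their means of 3.61 ± 0.656 and 3.75 ± 1.37 were 0.14 cycles apart (exact permutation p = 0.857, and 0.857 adjusted). The sign of this difference turned without undiseased artery 4 (-0.13) and without plaque 4 (-0.44). Against miR-146b, which has the seed of miR-146a and like it is induced by inflammatory signals, the means of 2.59 ± 0.585 and 1.92 ± 1.37 were -0.67 cycles apart (exact permutation p = 0.486, adjusted 0.729).

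The other three comparisons had wide spreads. Against miR-146a the means differed by 1.43 cycles (exact permutation p = 0.143, adjusted 0.343), with plaque 1, 3 and 4 above all undiseased samples and plaque 2 below them. Against miR-142-3p, a miRNA of all blood cell lineages, they differed by 3.14 cycles (exact permutation p = 0.171, adjusted 0.343). Plaque 1 to 4 stood at 4.81, 5.01, 0.93 and 9.85 cycles there and the undiseased samples at 0.38 to 3.28, so that 3 of 4 plaque samples lay above all undiseased ones. Without plaque 4 the difference from miR-142-3p was 1.57 cycles. Against miR-21, which is raised in many inflamed tissues, the difference was 1.00 cycles (exact permutation p = 0.771, adjusted 0.857) and turned to -0.64 without plaque 4.

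**Figure D3:**
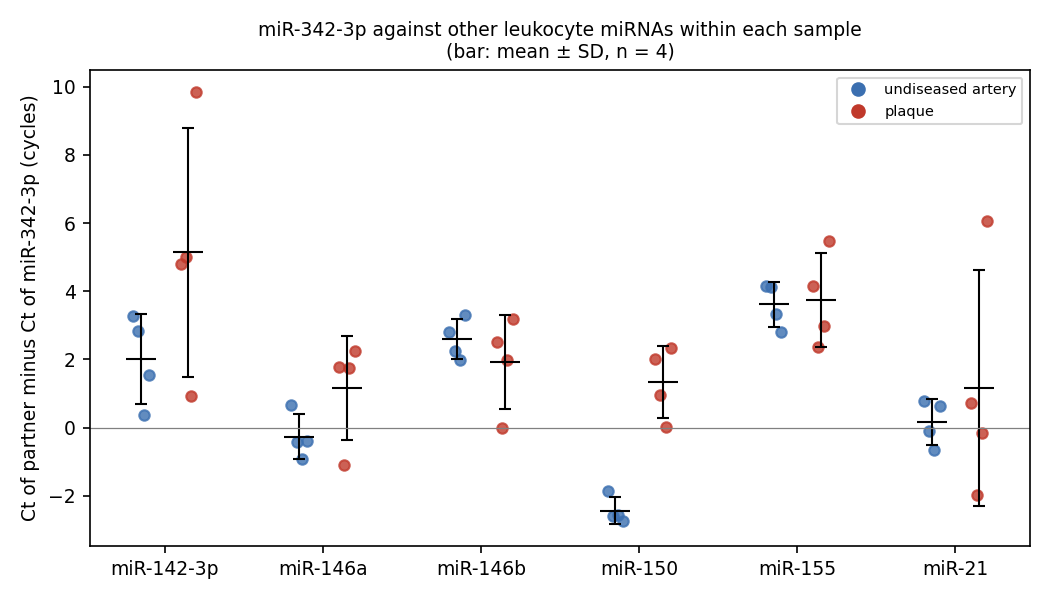
Ct of each of 6 leukocyte miRNAs minus the Ct of miR-342-3p in the same sample (vertical axis, cycles), undiseased artery in blue and plaque in red, with black bars for the mean ± SD of 4 samples. The groups separate for miR-150 (-2.74 to -1.87 against 0.01 to 2.33) and overlap for the other miRNAs.

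The miRNAs whose profile over the 8 samples came nearest to that of miR-342-3p included those same inflammatory miRNAs. Profiles were centred on their own mean and compared by the root mean square difference over the 8 samples, among the 123 other miRNAs detected in all of them. For the miRNAs compared within samples above, this equals the spread of those differences over the 8 samples, so it is not separate evidence. The nearest were miR-155 (0.933 cycles), miR-146b (0.974), miR-21* (1.16), miR-149 (1.24) and miR-146a (1.25). The median over all 123 was 2.42 and the highest value 4.49. For miR-155 the levels of undiseased artery 1 to 4 were -4.30, -5.11, -4.54 and -3.12, and those of plaque 1 to 4 were -1.38, -2.51, -2.04 and 0.01, highest in plaque 4 as for miR-342-3p. miR-146b stood at 0.27, -0.14, -1.03 and 2.31 in plaque 1 to 4 and at -3.61 to -2.95 in undiseased artery. Plaque 4 had the highest level of all 8 samples in each of the 5. The depth reference cancels out of the root mean square difference. A difference between the panels does not cancel for miR-21* and miR-149, which are on panel 2. The likeness of these miRNAs is a description of 8 samples, and it has no test.

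**Figure D4:**
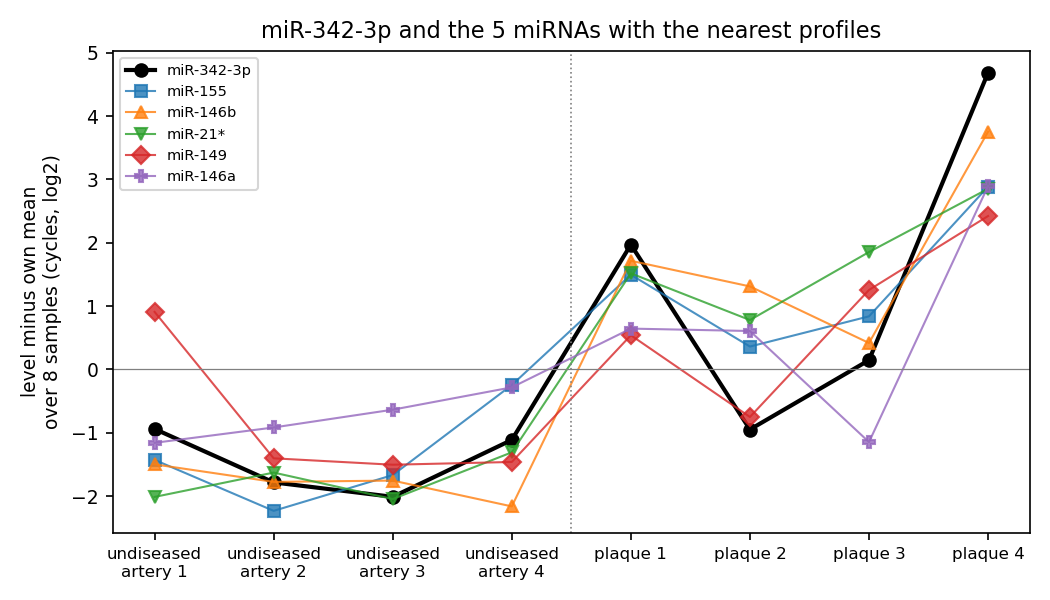
Level of miR-342-3p (black) and of the 5 miRNAs with the nearest profiles, each minus its own mean over the 8 samples (vertical axis, cycles), by sample, with lines drawn only to guide the eye. All 6 are highest in plaque 4, and miR-342-3p is about as low in plaque 2 as in undiseased artery 1.

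Part of the other leukocyte miRNAs rose as well. Of 8 other leukocyte and myeloid miRNAs on the panels 7 were tested, of which 3 rose (miR-146b, miR-155 and miR-21), 0 fell and 4 missed the threshold. The median log2 fold change of the 7 was 1.50 against -0.11 over all 172 tested miRNAs, of which 15.7% rose and 18.6% fell. The leukocyte, lymphocyte, smooth muscle and endothelial miRNAs listed are all on panel 1. There the median was -0.73 and 7 of 109 tested miRNAs rose, while the median on panel 2 was 0.82. miR-150 (-0.85, limma adjusted p = 0.425) and miR-142-3p (-0.22, limma adjusted p = 0.878) were among those that did not pass. Another was miR-223, whose Ct near 10 in 3 samples cannot be compared with the rest. miR-142-5p, not tested, was detected in 4 undiseased samples and in plaque 1. Of 4 lymphocyte miRNAs, which share miR-150 and miR-155 with the leukocyte list, 1 rose (miR-155), 2 fell (miR-181a, -1.65, and miR-28, -1.82) and miR-150 did not pass, with a median of -1.25. All 7 vascular smooth muscle miRNAs listed fell (18.6% of all tested miRNAs did), miR-28 among them, with a median of -2.12. The lists were chosen with earlier results of these data known, so their counts are a description and not a test. Of 4 endothelial miRNAs 0 passed (median -0.46), and neither did the erythroid miR-451 (-1.56). The liver miRNA miR-122 was detected in plaque 1 alone. Of 7 epithelial miRNAs 1 was tested, and it fell (-1.78), while 3 were detected in 0 samples. Of 7 striated and heart muscle miRNAs 4 were tested, with 0 higher and 1 lower, and 2 were detected in 0 samples. The part of cell composition in the miR-342-3p difference was not tested.

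The miRNAs that Akt1, the reported target of miR-342-5p, is known to control in mouse macrophages were also on the panel. In those cells Akt1 raises let-7e and miR-181c and lowers miR-155 and miR-125b. In plaque let-7e fell (-2.53, SE 0.688, limma adjusted p = 0.0223), miR-125b-5p fell (-1.63, SE 0.499, limma adjusted p = 0.0327) and miR-155 rose (2.79, SE 0.635, limma adjusted p = 0.0117). miR-181c was detected in 4 undiseased samples and in plaque 1 and plaque 4, the samples that also detected miR-342-5p. These plaque samples also detected the most miRNAs (232 and 240, against 175 and 148 in plaque 2 and plaque 3). The levels of miR-181c were -6.67 and -6.75 there and -5.74 to -4.84 in undiseased artery. miR-125b-5p also stands on the smooth muscle list, and let-7b, let-7c, let-7d and let-7g fell like let-7e (-1.75, -1.75, -1.59 and -2.19).

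The miRNA genes near Mir342 moved in both directions or were rarely detected. The closest, Mir345, lies 178 kb away on chromosome 12, and miR-345-5p was detected in 4 undiseased samples and 1 plaque sample (plaque 4), miR-345-3p in 3 undiseased and 0 plaque samples. The other hairpins within 1000000 bases belong to the imprinted Dlk1-Dio3 region, at 905 to 960 kb. Of the 22 assays for hairpins in this window 4 were tested, of which miR-673-5p rose (2.63, limma adjusted p = 0.0146), miR-127 fell (-1.49, limma adjusted p = 0.0474) and 2 did not pass. Detection was more frequent in plaque for 3 of the 22 assays (13.6%), less frequent for 8 (36.4%) and equal for 11. Over all 517 assays it was more frequent in plaque for 24 (4.64%) and less frequent for 174 (33.7%).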

How the data were processed

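The authors deposited raw real-time PCR threshold cycles (Ct) for 8 samples, with 40 where an assay did not amplify, and per the labels used the RecoverAll kit for RNA and FAM as the dye. Details of the instrument, reverse transcription, preamplification and threshold were not given in the sources used here. Of 530 rows, 341 were on panel 1 (335 miRNA assays, both miR-342 arms included) and 189 on panel 2 (182 miRNA assays), told apart by the recurring control RNAs. A Ct of 35 or above was treated as missing. Samples were centred on the mean Ct of the 124 miRNAs detected in all 8. The 172 miRNAs that both groups detected in 3 or more of 4 samples were fitted in limma 3.58.1 (R 4.3.3, lmFit, then eBayes, group as the only term), with p-values adjusted by Benjamini-Hochberg, with 0.05 as the threshold. These steps were tested on simulated data. Within-sample differences were compared by exact permutation of group means (two-sided, 70 arrangements). The number of samples limits the precision, and PCR efficiency was not measured. Sequences are RefSeq's (GRCm38.p6), folded with RNAfold 2.7.2. The title of plaque 4 calls it replicate 4 and its description replicate 3, and the title was used.

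The members, lists and comparison miRNAs were chosen with earlier results of these data known. The rule for named miRNAs covered both arms, the comparison miRNAs, the marker and Akt1 lists, the 5 nearest profiles, miRNAs sharing a seed or the detection pattern, and genes within 1000000 bases; miR-546 and miR-208 were named after their values were seen. Alternatives were other Ct limits, references and filters, array weights, a covariate, a replicate block and the omission of each sample.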

Additional observations from a re-analysis of the deposited data

Results flagged for a closer look

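Among 32 sets of 4 values examined (the levels of miR-342-3p and of the miRNAs compared with it, and the differences within samples), 3 held a sample far from the other three, by Dixon's criterion at the 95% level. Chance gives about 5% of such sets, so a few are to be looked for. The difference of miR-342-3p from miR-146a was -1.11 cycles in plaque 2 and 1.74 to 2.24 in the other plaque samples. The level of miR-149, a miRNA with a near profile, was 3.41 in undiseased artery 1 and 1.00 to 1.10 in the other undiseased samples. The level of miR-21 was -0.54 in undiseased artery 3 and -0.94 to -0.88 in the others.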

How the results depend on the processing

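miR-342-3p was higher in plaque under every alternative tried, and its call was lost under a limit of Ct 32 (log2 difference 2.72, adjusted p = 0.0505), quantile normalization (2.35), the references U6 (2.48), control RNAs (2.44) and median (2.86), raw Ct (0.23), and, at an unchanged 2.92, with missing values set to the limit, with no filter and in the exact test; the cause was not tested. With 1 sample left out it ran from 1.85 to 3.73 (limma adjusted p 0.0138 to 0.109). The call held with a limit of 38, panel centring, miRNAs detected in all samples, array weights, the covariate and the replicate block. The 59 miRNAs called became 2 with control RNAs or with U6, 35 with panel centring, 13 with the covariate, 36 without plaque 2 and 3 (chosen after seeing the data) and 19 to 79 with 1 sample left out. The miR-342-5p counts stayed short of the threshold throughout (2 or 1 plaque samples). The smallest lower limit of the distance between the arms in undiseased artery, 8.05 cycles, became 5.05 at a limit of 32 and 11.0 at 38, by construction; both arms are on panel 1, so panel centring left it as it was. With 1 sample left out, the difference from miR-155 ran from -0.44 to 0.60, that from miR-21 from -0.64 to 2.04, that from miR-142-3p from 1.57 to 4.55 and that from miR-150 from 3.44 to 4.21. Without plaque 2 and 3 the differences from miR-146b, miR-155, miR-146a, miR-21, miR-150 and miR-142-3p were 0.26, 1.205, 2.27, 3.23, 4.62 and 5.32. Correlations of deviations between same-numbered samples were 0.13, 0.19, -0.24 and -0.16 over 124 miRNAs. Those between samples of unlike number ran from -0.27 to 0.29, so whether replicate numbers pair the samples could not be decided. With replicate number as a block miR-342-3p stayed at 2.92 (limma adjusted p = 0.0152), with 49 miRNAs called, and no difference within samples passed, the smallest p of 16 sign arrangements being 0.125. Each assay had 1 well per sample and all partners are on panel 1, so single wells and panel centring were not run for them.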
